A study of Mus musculus with 15 samples.

Results

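The comparison set the hippocampus of mice sampled 1 h after a late extinction trial against that of mice sampled 1 h after the first such trial. Its members were assigned by sample title, which gave 10 of the study's 15 arrays, 5 for the late trial and 5 for the first. They were chosen with earlier results of these data known. All mice were male C57BL/6J, an inbred laboratory strain, and 1 array held the RNA of 1 sample. In both groups the mice had received a footshock in a conditioning box and were put back into it without shock at intervals of 24 h. The group called E1 was sampled at trial 1, when freezing, the immobility of a frightened mouse, was high. The group called ELF, for extinction trial with low freezing, was sampled at trial 5, the trial at which freezing had fallen below that of E1. The remaining 5 arrays are controls that never received the shock. The sample names call them naive, while the design text has them placed in the box, and they serve here as a background level. The labels give no ages, and no freezing value for any mouse. Because an ELF mouse had both more trials and more days since the shock than an E1 mouse, trial number and elapsed time cannot be told apart.

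Extinction is new learning that a place is safe, and contextual fear and its extinction both need the hippocampus. Neurons that fire strongly switch on immediate early genes within minutes. Many of these encode transcription factors such as the Fos, Egr and Nr4a families and Npas4, and others encode synaptic proteins such as Arc, which controls the removal of AMPA receptors from synapses. Their transcripts decay within hours, so a sample taken at 1 h is a record of recent activity. The hippocampus also holds glia and blood vessels, and its dissection can carry choroid plexus, the secretory tissue of the ventricle, or neighbouring thalamus. In whole tissue, fewer cells of a type and less RNA per cell cannot be told apart.

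Values below are log2 intensities relative to the 75th percentile of the same array, so that a difference of 1 is a doubling of intensity. They are negative for probes dimmer than that percentile, and levels of different probes are not comparable. Differences are ELF minus E1 with the standard error (SE) of a limma fit to all 15 arrays, and a gene is called only where the p of 26117 genes, adjusted by the method of Benjamini and Hochberg, is under 0.05. The dissected tissue expressed markers of the hippocampal subfields: 11 of 11 CA1 markers, 16 of 17 CA3 and CA2 markers and 16 of 16 dentate gyrus markers were well above background on all 10 arrays. These 10 arrays came from 3 slides. E1 1 to 3 were on slide 2, ELF 1, 2 and 5 on slide 4, and E1 4 and 5 shared slide 3 with ELF 3 and 4, so 3 arrays of each group had no partner of the other group on their slide. Of the controls, 4 were on slide 1, which held no E1 or ELF array, and control 5 was on slide 2. Differences of E1 or ELF from the controls therefore cannot be fully told apart from differences between slides. The 75th percentile lay between 1441 and 2457 in E1 and between 2039 and 2932 in ELF. The median Pearson's r of an array with the others of its group was 0.9875 to 0.9939 in E1 and 0.9729 to 0.9862 in ELF, lowest for ELF 4 and ELF 2 (0.9769). On the 3 ELF arrays of slide 4 the dimmer genes, those below the median level, had a median 0.349 to 0.683 above the mean of all arrays, whereas on the 2 ELF arrays of slide 3 it was -0.192 and -0.576. For that reason many results are also given on slide 3 alone and between slides 4 and 2, which use separate arrays, and the plot of list medians shows both for each list.

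The design describes the 5 samples of a group as biological replicates. Only 2 genes passed the threshold, both chemokine genes and both higher in ELF, which is 0.00766% of the 26117 genes. None was called lower, or 0%. At an unadjusted p under 0.05 there were 1473 higher genes (5.64%) and 1045 lower genes (4%). These are the shares of all genes to set beside those of the gene lists below. The groups did not overlap for 287 genes on the higher side (1.1% of 26064 without missing values) and for 249 on the lower side (0.955%). The median difference of all genes was 0.05, and 60.3% of genes had a difference above 0. Apart from the chemokines, the genes named below therefore did not pass, and their values are given as measured.

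Cxcl5 (probe at chromosome 5, 90732453 to 90732512 of mm7), which encodes a chemokine that attracts neutrophils, rose in ELF. Its values were -5.13, -4.62, -5.36, -5.61 and -5.07 on E1 arrays 1 to 5 and -3.84, -3.57, -3.55, -3.10 and -3.64 on ELF arrays 1 to 5. Every ELF array lay above every E1 array, and the groups did not overlap. The difference was 1.62 (SE 0.20, limma adjusted p = 0.0258), a 3.07-fold higher intensity. Controls lay between -3.44 and -2.66, with a mean of -3.16 against -3.54 in ELF and -5.16 in E1. The ELF mean was thus nearer to that of mice that had not been shocked, but only ELF 4 lay within the control range. The difference was 2.01 on slide 3 and 1.35 between slides 4 and 2.

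Ccl3 (chromosome 11, 83717761 to 83717820), encoding the macrophage inflammatory chemokine MIP-1 alpha, also rose. It read -5.00, -5.15, -4.86, -5.01 and -5.18 in E1 and -4.41, -4.22, -4.46, -4.47 and -4.42 in ELF. Both groups were tight and did not overlap, and the probe was well above background on all 10 arrays although it is dim. The difference was 0.64 (SE 0.084, limma adjusted p = 0.0258), or 1.56-fold, with 0.63 on slide 3 and 0.66 between slides 4 and 2. The control arrays ranged from -4.42 to -4.14, with a mean of -4.263 against -4.395 in ELF and -5.04 in E1. ELF 1 and ELF 2 lay within that range, and the other ELF arrays just below it. Each call depends on the arrays in the fit: with 1 of 15 arrays left out, Cxcl5 was called in 7 fits and Ccl3 in 5. The highest adjusted p was 0.106 for Cxcl5, without E1 4, and 0.114 for Ccl3, without ELF 1. Cxcl5 missed the threshold without control 4, without E1 1, 3, 4 or 5 and without ELF 1, 2 or 5, and Ccl3 in those fits and also without control 3 or E1 2. The sign was the same in all of these fits. Among 32 measured interferon and immune genes these were the 2 called. The median of that list was -0.03, and 2 members were higher (6.25%) and 1 lower (3.12%) at an unadjusted p under 0.05, the lower one being Bst2, an interferon-induced membrane protein, at -0.42. Microglia markers, the genes of the brain's resident macrophages, gave 0 of 20 in either direction and a median of 0.04.

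The promoter of Ccl3 was examined because it is the called gene for which a RefSeq promoter entry of GRCm38.p6 was at hand. The 250 bases before its transcript start (chr11:83649379-83649628, minus strand) are shown 5′ to 3′, in lower case because none of the motifs searched was found in them. These were the cyclic AMP response element (CRE) TGACGTCA, its shorter form TGACG and the TATA motif TATAAA. The NF-kB motif and the CArG box of serum response factor were also searched, all on both strands. The NF-kB motif was searched only as an exact sequence without variable letters, which 0.14% of 32841 promoters held. Variant NF-kB sites were not searched, so their presence in this window is not known.
Ccl3: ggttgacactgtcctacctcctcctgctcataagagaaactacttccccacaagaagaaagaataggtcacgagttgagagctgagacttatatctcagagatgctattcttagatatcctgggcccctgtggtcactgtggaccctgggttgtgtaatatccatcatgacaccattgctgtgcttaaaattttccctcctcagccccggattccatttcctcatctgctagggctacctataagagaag

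**Figure D1:**
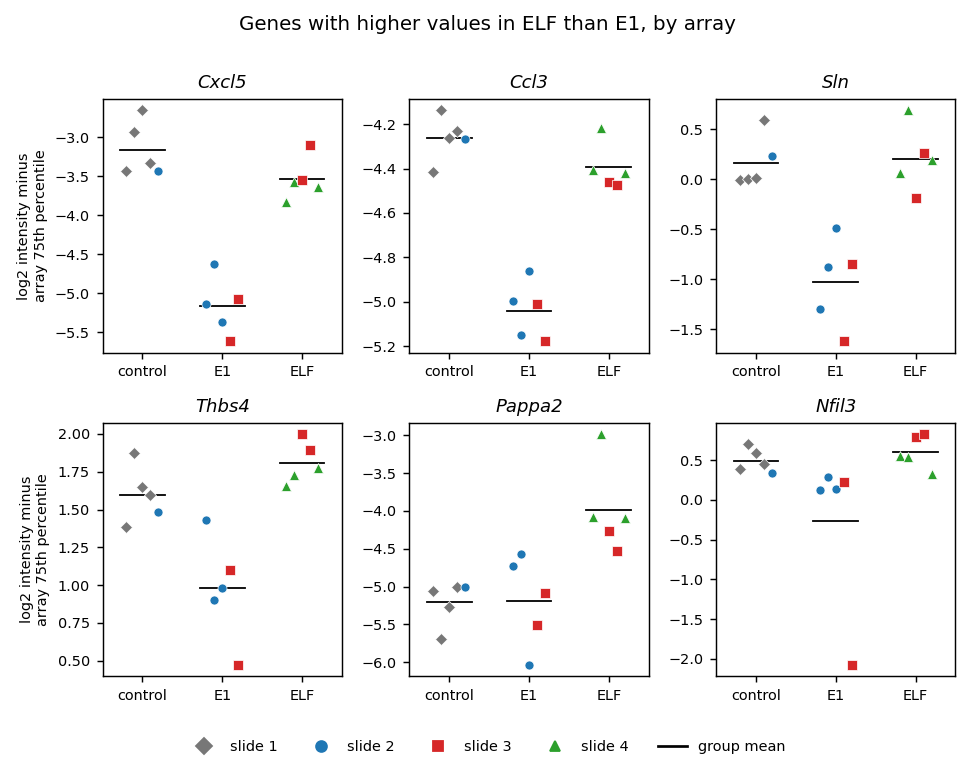
Log2 intensity minus the array's 75th percentile for 6 genes with higher values in ELF, with 1 point per array, the marker showing the slide and the bar the group mean. Cxcl5 and Ccl3, the called genes, were lowest on the E1 arrays, and their ELF means lay nearer to the control means but below them. The E1 mean of Nfil3 was pulled down by 1 array at -2.08.

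The other 10 genes with the lowest p on the higher side had limma adjusted p from 0.122 to 0.209. Sln, encoding sarcolipin, a small inhibitor of the calcium pump of the endoplasmic reticulum, read -1.30, -0.88, -0.49, -1.62 and -0.85 in E1 and 0.06, 0.69, -0.18, 0.26 and 0.19 in ELF. All ELF arrays were above all E1 arrays and close to the controls, which spanned -0.01 to 0.59. The difference was 1.23 (SE 0.21, limma adjusted p = 0.122), with 1.27 on slide 3, and a further probe of the gene had the same sign. Thbs4, which encodes a secreted thrombospondin, was between 0.47 and 1.43 in E1 and between 1.65 and 2.00 in ELF, a difference of 0.83 (SE 0.15, limma adjusted p = 0.170) that was 1.16 on slide 3 and 0.61 between slides 4 and 2. Its E1 arrays were again the low ones, since controls lay between 1.38 and 1.87. Icosl, a costimulatory ligand of T cells, differed by 0.47 (0.72 on slide 3 and 0.31 between slides 4 and 2), and its dimmer other probe by 0.10 (SE 0.56). Nhlh1, a neuronal basic helix-loop-helix factor, differed by 0.74, with 1.05 on slide 3 and 0.53 between slides 4 and 2. Tph2, the neuronal enzyme of serotonin synthesis, differed by 0.57 on a dim probe, with 0.43 on slide 3 and 0.66 between slides 4 and 2. The other 5 were Olfr456, Olfr257 and Olfr1232, which encode olfactory receptors, Adam3, a sperm protein gene, and F9, coagulation factor IX. They differed by 1.12, 1.33, 1.17, 1.00 and 1.00 in that order, and each was larger between slides 4 and 2 than on slide 3 (for Olfr257, 1.81 against 0.60). Dim genes as a whole lay higher on slide 4, as given above, and the part of this in these 5 differences and in that of Tph2 was not tested.

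As a list, immediate early genes lay lower in ELF than in E1, though 18 of 56 members were higher and none passed the threshold. Of 58 listed activity-regulated genes 56 were measured, and all 56 were well above background on all 10 arrays. The median of their differences was -0.12, where that of all genes was 0.05, with 38 lower and 18 higher. At an unadjusted p under 0.05, 19 were lower (33.9%, beside 4% of all genes) and 2 were higher (3.57%, beside 5.64%), and none was called (0%). The groups did not overlap for 5 on the lower side (8.93%, beside 0.955%) and for 1 on the higher side (1.79%, beside 1.1%). The list was chosen with earlier results of these data known, so these shares are no independent test. The differences of the 19 ranged from -0.859 for Npas4 to -0.282 for Per1, with limma adjusted p from 0.0755 to 0.505. All 19 had E1 means above the control mean, and 16 also had ELF means above it, so in most of them ELF stood between control and E1. The 19 were chosen for values lower in ELF than in E1, which favours high E1 means. Over all 56 members the median difference from the control mean was 0.23 for E1 and 0.17 for ELF. For all genes it was 0.04 and 0.10. Array by array, the list's median deviation from the mean of all arrays was 0.0459 to 0.141 in E1, -0.0919 to 0.141 in ELF and -0.192 to -0.096 in controls.

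The gene with the lowest p on the lower side was Csrnp1 (named Axud1 on the array, probe at chromosome 9, 119667234 to 119667293), a nuclear protein induced by axin. It read 0.24, 0.09, 0.47, 0.30 and 0.35 in E1 and -0.40, -0.21, -0.27, -0.39 and -0.25 in ELF. The groups were well separated, and the controls, from -0.62 to -0.27, overlapped ELF. The difference was -0.59 (SE 0.090, limma adjusted p = 0.0755), -0.65 on slide 3 and -0.55 between slides 4 and 2. The gene's other probes did not repeat it, with -0.19 (SE 0.23) and 0.39 (SE 0.25). Trib1 (chromosome 15, 59722645 to 59722704), a pseudokinase that directs proteins to degradation, read -0.44, -0.61, -0.49, -0.55 and -0.51 in E1 and -1.08, -1.31, -0.91, -1.67 and -1.20 in ELF. E1 was tight and ELF spread at about the control level, which ranged from -1.46 to -1.19. Its difference was -0.71 (SE 0.12, limma adjusted p = 0.122), -0.76 on slide 3 and -0.68 between slides 4 and 2. Scaling decides which of these genes are called: with quantile normalization Axud1 and Trib1 both passed (limma adjusted p = 0.0431), while Cxcl5 and Ccl3 did not (limma adjusted p = 0.062 and 0.214).

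Arc (chromosome 15, 74749717 to 74749776) read 4.10, 3.83, 4.36, 3.87 and 3.78 in E1 and 3.18, 2.64, 3.61, 3.34 and 3.33 in ELF. No ELF array reached the lowest E1 array, while 4 of 5 stayed above the controls, which lay closely between 2.76 and 2.87. The difference was -0.77 (SE 0.16, limma adjusted p = 0.209), that is 1.7-fold higher in E1, but it was -0.35 on slide 3 and -1.05 between slides 4 and 2. Bdnf, the neurotrophin of activity-dependent plasticity, read 0.84, 1.13, 1.20, 1.19 and 0.84 in E1 and 0.76, 0.77, 0.68, 0.73 and 0.56 in ELF, where it was at the control range of 0.52 to 0.82. Its difference of -0.34 (SE 0.094, limma adjusted p = 0.306) was -0.31 on slide 3 and -0.36 between slides 4 and 2. Nptx2, a secreted pentraxin that gathers AMPA receptors, had -1.14, -0.74, -0.45, -0.80 and -0.71 in E1 and -1.18, -1.23, -1.20, -1.62 and -1.24 in ELF. Only a narrow gap separated the groups, between E1 1 and ELF 1, and the difference was -0.52 (SE 0.15, limma adjusted p = 0.347), with -0.66 on slide 3.

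The activity-dependent transcription factors divided by slide. Npas4 read -1.35, -2.18, -0.84, -1.76 and -1.17 in E1 and -2.33, -2.74, -1.73, -2.45 and -2.35 in ELF. The groups overlapped through E1 2 and ELF 3, and the difference was -0.86 (SE 0.24, limma adjusted p = 0.306), with -0.62 on slide 3. Fos, a subunit of AP-1 measured by 10 spots per array, read -0.47, -1.05, -0.46, -1.22 and -0.57 in E1 and -1.66, -2.33, -0.88, -1.24 and -1.68 in ELF. The 3 ELF arrays of slide 4 were the lowest, ELF 3 lay within the E1 range and ELF 4 was level with the lowest E1 array, just below it. Its difference of -0.80 (SE 0.25, limma adjusted p = 0.371) was -1.23 between slides 4 and 2 and -0.16 on slide 3. Egr1, a zinc finger factor, read 3.59, 3.18, 3.40, 3.29 and 3.05 in E1 and 2.67, 2.56, 3.46, 3.15 and 2.79 in ELF, again with ELF 3 and ELF 4 at the E1 level. It differed by -0.38 (SE 0.16, limma adjusted p = 0.477), by -0.72 between slides 4 and 2 and by 0.14 on slide 3. Its relative Egr2 gave -0.59 (SE 0.20, limma adjusted p = 0.407), with -1.0 between slides 4 and 2 and 0.03 on slide 3.

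Nr4a1, an orphan nuclear receptor, and Junb, an AP-1 subunit, had differences of -0.47 and -0.50 (limma adjusted p = 0.306 and 0.351), which were -0.13 and -0.23 on slide 3. Dusp1, a phosphatase that switches off MAP kinases, gave -0.37 (limma adjusted p = 0.340) with -0.24 on slide 3. Ier2, a small nuclear factor, gave -0.42 with -0.36 on slide 3, and Inhba, a subunit of activin, gave -0.43 with -0.49. In all, 16 of the 19 genes were lower on slide 3, Egr1, Egr2 and Egr4 being the exceptions, and 19 of 19 were lower between slides 4 and 2. The 19 were chosen as lower over these same arrays, so such counts are no separate test. Over all 56 members, 33 were lower and 23 higher on slide 3. In 15 of the 19 the difference was larger between slides 4 and 2. The 2 E1 and 2 ELF arrays of slide 3 did not overlap for 8 of the 19 on the lower side, beside 42% of all genes. The median of the list on slide 3 was -0.11, where that of all genes was -0.18, and between slides 4 and 2 the pair was -0.22 and 0.16. Against these medians of all genes, the list was lower between slides 4 and 2 and not lower on slide 3. The slide 3 median depended on brightness, at -0.53 for the dimmer genes, as defined above, and -0.01 for the brighter ones. The list lay between these, and which of them is the fitting background was not tested. Of the members on the higher side, Jun, the partner of Fos in AP-1, differed by 0.26 with 0.40 on slide 3. Fosb, Fosl1, Egr3 and Nr4a3, from the families of Fos, Egr1 and Nr4a1, were also higher, at 1.2-, 1.16-, 1.15- and 1.21-fold of E1. Fosl2 and Nr4a2 of these families were lower, at 0.924- and 0.889-fold. Nfil3, a transcriptional repressor, differed by 0.87 (SE 0.36, limma adjusted p = 0.474) without overlap, but E1 5 alone was at -2.08 where the other E1 arrays were at 0.12 to 0.29, and without E1 5 the difference was 0.41.

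**Figure D2:**
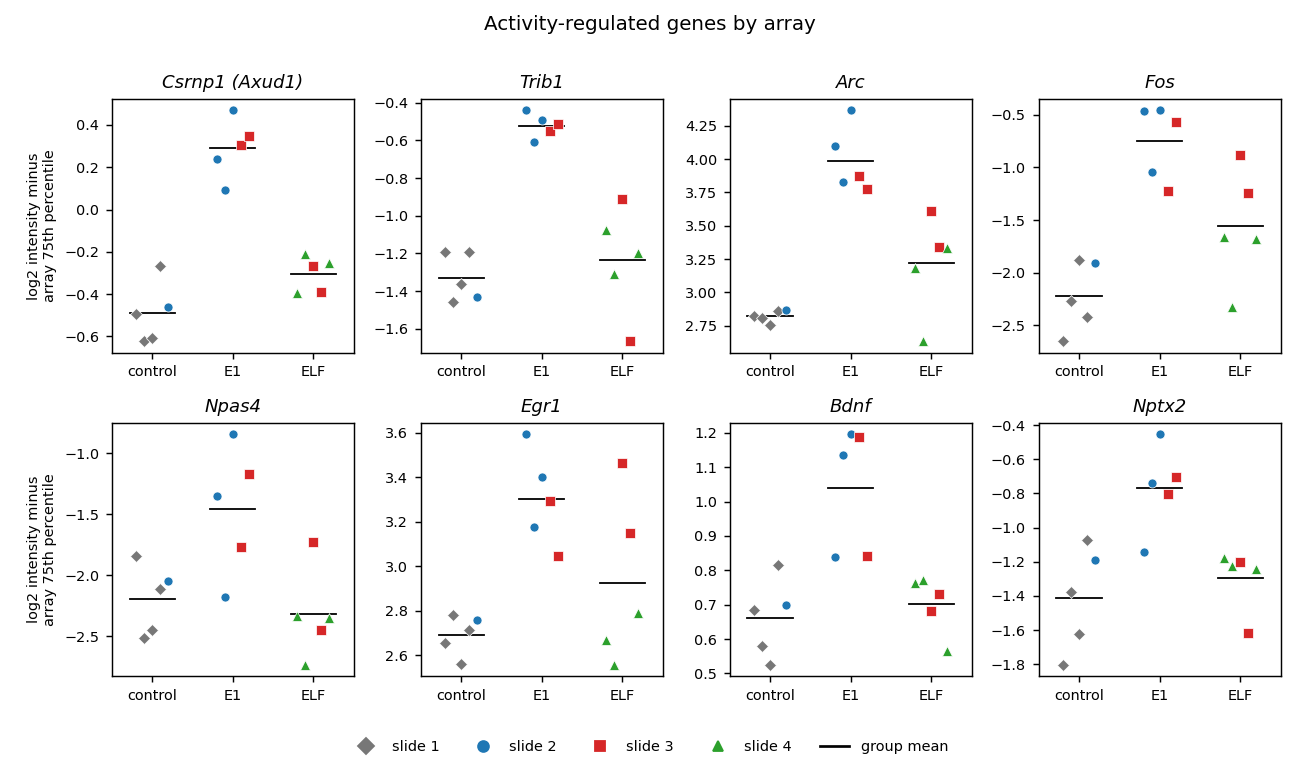
Log2 intensity minus the array's 75th percentile for 8 activity-regulated genes, with 1 point per array, the marker showing the slide and the bar the group mean. E1 was the highest group by mean in each panel, and the 2 ELF arrays of slide 3 lay nearer to E1 than those of slide 4 for Fos and Egr1 but not for Csrnp1 (Axud1 on the array) or Bdnf.

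**Figure D3:**
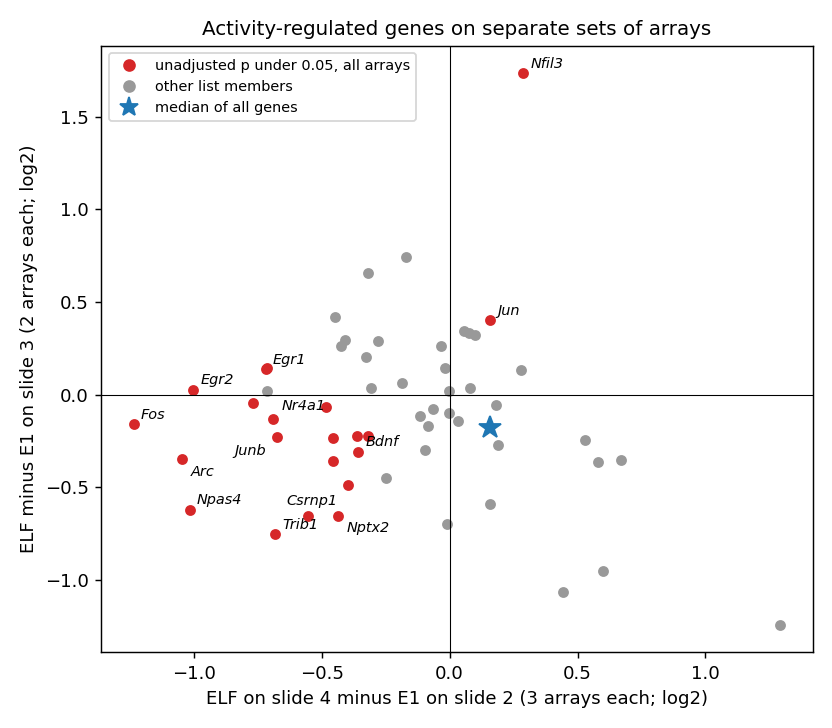
Differences of the 56 activity-regulated genes on separate arrays, with ELF on slide 4 minus E1 on slide 2 on the x axis and ELF minus E1 within slide 3 on the y axis, both log2. Red points had an unadjusted p under 0.05 over all arrays, and the star is the median of all genes at 0.16 and -0.18. Csrnp1, Trib1, Npas4 and Nptx2 were below 0 on both axes by over 0.4, while Fos and Egr2 were far below 0 only on the x axis.

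Promoters of 3 of these genes, Csrnp1, Fos and Npas4, are shown for the CRE, the site through which the calcium-activated factor CREB acts on early genes. All 3 had lower means in ELF, but none passed. As given above, Fos differed little on slide 3 and the other probes of Csrnp1 did not repeat its difference. No promoter entry was at hand for Trib1, Arc or Nptx2. Each line holds the 250 bases before the transcript start, 5′ to 3′ on the gene's strand, from RefSeq on GRCm38.p6. Capitals mark TGACG on either strand (CGTCA when read on the other strand) and, in Fos, the TATA motif TATAAA. Csrnp1 is at chr9:119984743-119984992 (minus strand, the outermost of 4 listed starts), Fos at chr12:85473640-85473889 (plus strand) and Npas4 at chr19:4989972-4990221 (minus strand, a start inside the longest gene model).
Csrnp1: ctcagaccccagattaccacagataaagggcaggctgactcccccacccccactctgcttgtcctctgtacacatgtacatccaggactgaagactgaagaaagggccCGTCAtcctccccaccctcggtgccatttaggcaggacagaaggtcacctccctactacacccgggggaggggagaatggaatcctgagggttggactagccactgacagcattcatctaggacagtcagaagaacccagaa
Fos: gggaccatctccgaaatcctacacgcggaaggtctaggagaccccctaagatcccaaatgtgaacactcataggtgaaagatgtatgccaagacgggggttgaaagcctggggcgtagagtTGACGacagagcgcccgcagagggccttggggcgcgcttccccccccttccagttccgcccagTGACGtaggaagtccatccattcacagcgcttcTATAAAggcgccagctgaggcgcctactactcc
Npas4: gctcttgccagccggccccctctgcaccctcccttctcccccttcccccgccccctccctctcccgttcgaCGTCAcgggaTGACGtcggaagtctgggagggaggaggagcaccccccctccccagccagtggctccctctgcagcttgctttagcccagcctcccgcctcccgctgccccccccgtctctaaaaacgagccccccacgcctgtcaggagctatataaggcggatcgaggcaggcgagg
TGACG occurred once in Csrnp1, 142 to 138 bases before the start, and at 2 places each in Fos (129 to 125 and 66 to 62 bases before) and Npas4 (179 to 175 and 169 to 165 bases before). Among 32841 promoters of the same length 17.8% held it, 1.55% the full TGACGTCA, 12.4% TATAAA, 0.14% the exact NF-kB motif and 1.47% the CArG box. The full TGACGTCA, the exact NF-kB motif and the CArG box were in none of the 3 windows, and variant NF-kB sites were not searched. These matches describe letters and were not tested against the measurements.

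Genes that respond to stress hormones and the clock overlap with the early genes. Of 26 measured glucocorticoid-responsive genes 5 were lower at an unadjusted p under 0.05 (19.2%), none was higher, and the median was 0.01. The 5 were Dusp1 and Per1, which are also on the activity-regulated list, Sgk (now Sgk1), Nfkbia and Bhlhb2 (now Bhlhe40). Fkbp5, a standard target of the glucocorticoid receptor, was -0.13 to 0.23 in E1 and -0.45 to 0.24 in ELF, a difference of -0.04 (SE 0.13, limma adjusted p = 0.952), while its other probes gave 0.06 and -0.40. Among 22 clock genes 4 were higher (18.2%) and 5 lower (22.7%) at that p. Among those higher were Tef, an output factor of the clock, at 0.32 (its other probes at -0.53, 0.21 and 0.22), Arntl, the partner of CLOCK, at 0.20, and Nfil3. Those lower were the repressors Per1, Per2 and Gm129 (now Ciart) at -0.28, -0.31 and -0.47, Bhlhb2 at -0.28, and Rora, a nuclear receptor of the clock, at -0.63 (SE 0.16, limma adjusted p = 0.264). Gm129 was 0.16 on slide 3. Dbp, which belongs to the same output family as Tef, was 3.50 to 4.03 in E1 and 3.32 to 4.15 in ELF, where ELF 2 was high and the other 4 at 3.32 to 3.39. It differed by -0.30 (SE 0.16, limma adjusted p = 0.551), or -0.46 without ELF 2, and both groups were above the controls, which reached 3.11. Hours of the day at sampling are not given in the labels.

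The remaining lower genes of lowest p, all short of the threshold, had limma adjusted p from 0.178 to 0.250. Fras1, an extracellular matrix protein, differed by -0.56, Pltp, a phospholipid transfer protein, by -0.58, and the matrix protease gene Adamts1 by -0.52, the last with overlapping groups. Fras1 and Pltp were below the controls in ELF, with no ELF array reaching the control range. Atf2, a CRE-binding factor, differed by -0.44 on the probe used, while its 3 other probes gave -0.03, -0.02 and 0.12. Dyrk3, a kinase, gave -0.41, Plagl2, a zinc finger factor, -0.34, and Lrrcc1, a centrosomal protein gene, -0.90 on the probe used but -0.21 (SE 0.12) and -0.07 (SE 0.13) on its other probes. Tnnt1 and Synpo2 formed a pattern of their own. Tnnt1, a slow muscle troponin that also marks thalamus, read 0.37, -1.44, 0.04, 0.50 and -1.20 in E1 and -1.90, -1.64, -1.77, -1.77 and -1.54 in ELF. E1 1, 3 and 4 were high, while E1 2 and 5 were near ELF and the controls (-2.08 to -1.73). Synpo2, an actin-binding protein gene, read -0.12, -1.31, -0.48, -0.06 and -1.27 in E1, high on the same 3 arrays, and -2.01 to -1.46 in ELF. Their differences were -1.38 and -1.05 (limma adjusted p = 0.250 and 0.218). The other probes of Synpo2, above background on all 10 arrays, did not repeat it, with -0.01 (SE 0.17) and -0.13 (SE 0.26).

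Thalamus and habenula markers as a list had 17 of 21 measured members lower and a median of -0.10. At an unadjusted p under 0.05, 5 were lower (23.8%, beside 4% of all genes) with none called. Besides Tnnt1 and Rora these were Plcb4, Ramp3 and Rgs16 at -0.83, -0.38 and -0.33. Plcb4, a phospholipase C, lay between -2.71 and -2.50 in E1 and between -4.66 and -3.00 in ELF without overlap, lowest on ELF 2, and without that array differed by -0.54. Its sign was kept in 30 of 31 alternative fits, and the remaining fit gave 0.39. The list's median deviation per array was -0.0706 to 0.171 in E1 and -0.13 to 0.093 in ELF. On slide 3, 14 of its members were lower and 7 higher. Its median difference was -0.36 on slide 3 and -0.19 between slides 4 and 2, where those of all genes were -0.18 and 0.16. Dentate gyrus markers went the other way, with 13 of 16 higher and a median of 0.15, which was 0.064 on slide 3 and 0.25 between slides 4 and 2. At an unadjusted p under 0.05, 4 were higher (25%, beside 5.64% of all genes) and none was lower. Among the 4 were Prox1, the granule cell identity factor, at 0.43, Stxbp6 at 0.40 and Pdyn, which encodes prodynorphin, at 0.37 (limma adjusted p from 0.403 to 0.437). Prox1 read 1.12, 1.48, 1.36, 1.58 and 0.92 in E1 and 1.59, 1.94, 1.62, 2.02 and 1.43 in ELF, with ELF 5 inside the E1 range. Per array the dentate list ranged from -0.272 to 0.125 in E1 and from -0.0432 to 0.199 in ELF. CA1 markers had a median of -0.03 and CA3 and CA2 markers 0.12. Whether these marker levels bear on the early genes was not tested.

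Choroid plexus markers were lower in ELF, and most of that came from ELF 3. Of 27 listed markers 25 were measured, and all 25 had negative differences, with a median of -0.90, and 11 were lower at an unadjusted p under 0.05 (44%), though none was called. Ttr, the transthyretin gene that the choroid plexus expresses most strongly, read 4.09, 4.51, 3.92, 4.2 and 3.54 in E1 and 3.79, 3.64, -1.81, 4.01 and 3.35 in ELF. ELF 3 stood apart far below the rest and the other ELF arrays overlapped E1. The same array was the lowest of all 15 for 25 of 25 markers, with a median of -2.57 against the mean of the other ELF arrays. Without ELF 3 the list still had 22 of 25 members lower and a median of -0.36, against 0.07 for all genes, and 10 were lower at an unadjusted p under 0.05. Aqp1, the water channel of this epithelium, was the lowest of them at -0.87 (SE 0.27), and Prlr, the prolactin receptor, was at -0.67 (SE 0.28). Between slides 4 and 2, where ELF 3 plays no part, the median was -0.41. Controls were not low, with a median deviation of 0.115 to 0.766 per array against -0.0379 to 0.555 in E1 and -2.66 to 0.123 in ELF.

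Insulin-like growth factor genes that the choroid plexus and meninges also express had their lowest ELF value on the same array, and the differences of Igf2, Igfbp7 and Igfbp2 were smaller without it. Igf2, a growth factor studied in hippocampal memory and read here by 10 spots per array, was 3.60, 3.57, 3.07, 3.29 and 3.30 in E1 and 2.89, 3.40, 2.13, 2.81 and 2.68 in ELF. ELF 3 was the lowest array, ELF 1, 4 and 5 were also below every E1 array and ELF 2 lay within E1. The difference was -0.59 (SE 0.21, limma adjusted p = 0.422), with -0.42 without ELF 3, -0.82 on slide 3 and -0.43 between slides 4 and 2. Igfbp7, a secreted binding protein of the family that vessels express, was 0.94 to 1.30 in E1 and 0.32 to 1.16 in ELF, a difference of -0.53 (SE 0.18, limma adjusted p = 0.403), and again ELF 3 was lowest and ELF 2 highest. Without ELF 3 it was -0.45, on slide 3 -0.69 and between slides 4 and 2 -0.43. Igfbp2, another binding protein, differed by -0.73 (SE 0.22, limma adjusted p = 0.371), with ELF 3 at 0.96 and the other ELF arrays at 1.76 to 2.34, and by -0.52 without ELF 3. The part of the choroid plexus level in these differences was not tested. Pappa2, a protease that cleaves binding proteins, was dim and differed by 1.20 (SE 0.30, limma adjusted p = 0.264), at -6.04 to -4.57 in E1 and -4.54 to -2.99 in ELF, with 0.90 on slide 3 and 1.4 between slides 4 and 2. It was the only one of 25 measured members with higher values at an unadjusted p under 0.05 (4%), against 5 lower (20%), which also included Ins2 and Htra1, the latter saturated on 1 E1 and 5 ELF arrays. The median of the list was 0.07.

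Vascular markers were slightly lower. Of 30 endothelial markers 19 were lower, the median was -0.14, and 7 were lower at an unadjusted p under 0.05 (23.3%) with none higher or called. Ptprb, an endothelial phosphatase, was -0.01 to 0.17 in E1 and -0.65, -2.43, -0.12, -0.41 and -0.52 in ELF. The groups did not overlap, but ELF 2 stood apart, and the difference of -0.93 (SE 0.35, limma adjusted p = 0.436) was -0.30 on slide 3 and -0.53 without ELF 2. Abcb1a, the efflux pump of the blood-brain barrier, differed by -0.48 and Eng, a coreceptor for TGF-beta, by -0.42 (limma adjusted p = 0.422 and 0.409). Cldn5, the tight junction protein of brain vessels, had the opposite sign, 0.20 (SE 0.14, limma adjusted p = 0.698), but it was 0.50 on slide 3 and -0.0045 between slides 4 and 2. Flt1, which binds vascular endothelial growth factor, gave -0.36 (SE 0.22, limma adjusted p = 0.627) with 2 of its 5 probes above 0, and was 0.12 on slide 3 against -0.68 between slides 4 and 2. Controls were above both groups for this list, at 0.148 to 0.635 per array against -0.142 to 0.0268 in E1 and -0.364 to 0.063 in ELF. The lowest control, at 0.148, was control 5, the only one on a slide with E1 arrays. Among 16 mural cell markers 13 were lower, with 2 at an unadjusted p under 0.05 (12.5%). Rgs5, a pericyte marker, read 0.33, 0.26, 0.32, 0.33 and 0.60 in E1 and -0.06, -0.39, -0.02, 0.08 and -0.07 in ELF, a difference of -0.46 (SE 0.15, limma adjusted p = 0.373) with -0.44 on slide 3 and no overlap. Abcc9, a potassium channel subunit of pericytes, was the other at -0.45, which was -0.24 without ELF 4, and its other probes gave -0.19 and 0.23.

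**Figure D4:**
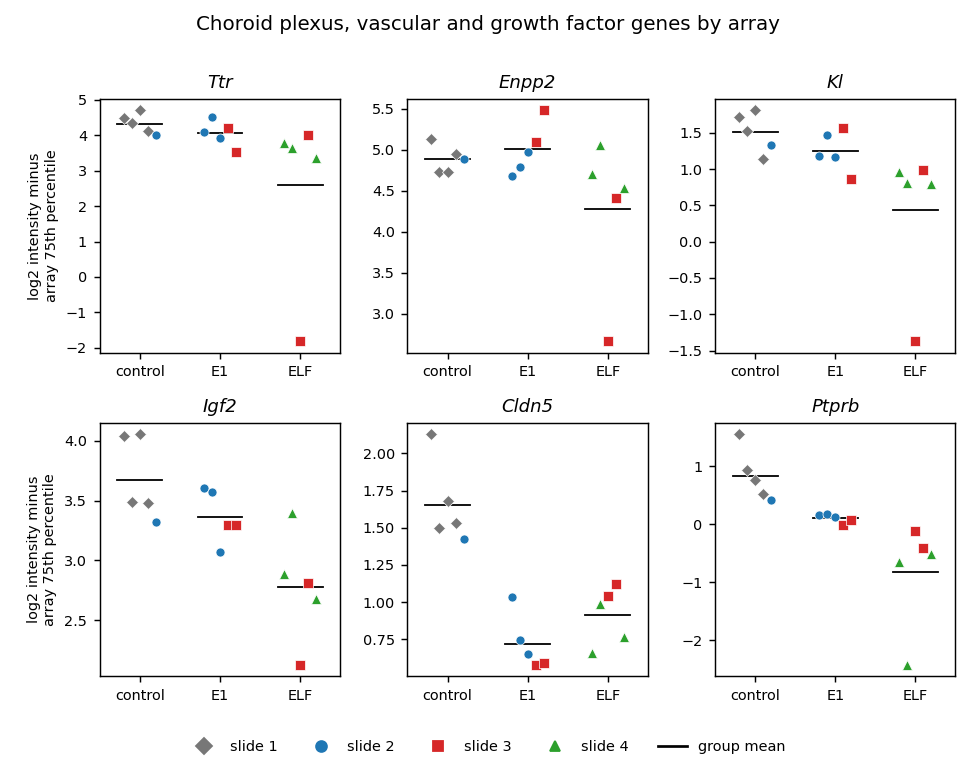
Log2 intensity minus the array's 75th percentile for choroid plexus genes (Ttr, Enpp2, Kl), the growth factor gene Igf2 and the vascular genes Cldn5 and Ptprb, with 1 point per array, the marker showing the slide and the bar the group mean. ELF 3, on slide 3, was at -1.81 for Ttr and 2.66 for Enpp2, far below the other ELF arrays, and the low array for Ptprb, at -2.43, was ELF 2.

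Astrocyte markers were split, with 3 higher and 3 lower of 20 at an unadjusted p under 0.05 (15% each, beside 5.64% and 4% of all genes) and a median of -0.01. Id4, an inhibitor of basic helix-loop-helix factors, read 2.59, 2.60, 2.40, 2.59 and 2.54 in E1 and 2.68, 3.03, 3.22, 2.97 and 2.79 in ELF, without overlap (difference 0.40, SE 0.10, limma adjusted p = 0.264). Cldn10, a claudin, differed by 0.29 without overlap, and Gja1, the gap junction protein connexin 43, by 0.39, or 0.21 without ELF 2. Those lower were Slc7a10 at -0.23, Aqp4 at -0.38 and Aldoc, whose probe was saturated on 4 E1 and 5 ELF arrays and whose other probe gave 0.22. Oligodendrocyte markers had a median of -0.01, with 2 of 25 higher (8%) and 1 lower (4%) at that p. The higher ones were Gpr17, a receptor of precursor cells, at 0.42, whose other probe gave -0.04, and Aspa at 0.55, which was 0.25 without E1 5. Of 31 neurogenesis and proliferation genes 3 were higher (9.68%) and 2 lower (6.45%): Ccnb1, the mitotic cyclin, at 0.74 without overlap, Sox11 at 0.41 and Prox1, against the replication gene Mcm2 at -0.32 and Dcx, a marker of young neurons, at -0.27. Sox11 and Dcx each kept their sign in 30 of 31 alternative fits, with -0.45 and 0.14 in the remaining fit. None was called.

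Among neuronal receptor genes, Gabrg1, a GABA receptor subunit measured by 10 spots per array, read 1.03, 1.19, 0.85, 0.71 and 0.70 in E1 and 1.26, 1.28, 1.49, 1.59 and 1.35 in ELF. The groups did not overlap, and the difference was 0.50 (SE 0.12, limma adjusted p = 0.264), 0.84 on slide 3 and 0.28 between slides 4 and 2. Htr1a, an inhibitory serotonin receptor, differed by 0.35 and Adra2a, an inhibitory adrenergic receptor, by 0.40, with -0.05 and 0.31 on its other probes. Of 35 voltage-gated channel genes 5 were lower (14.3%) and none was higher at an unadjusted p under 0.05, with a median of -0.08. Kcna4, a subunit of voltage-gated potassium channels, differed by -0.46, and its relative Kcna1 was saturated on 2 E1 arrays and 1 ELF array. Of 32 synaptic vesicle genes 3 were lower (9.38%) and none was higher, with a median of -0.09 that was -0.03 over the genes without saturation. For the Wnt pathway 5 of 37 genes were lower (13.5%) and 1 was higher (2.7%) at an unadjusted p under 0.05. Wnt9a (-0.06 on its other probe) and the receptor Fzd4 were at -0.43 and -0.41, Sfrp1, a secreted Wnt antagonist, at -0.60, Wnt3 at -0.38 and Fzd10 at -0.33 (-0.18 without E1 1), while the antagonist Frzb was at 0.29. Dnmt3a, a DNA methyltransferase, differed by -0.52 (SE 0.18, limma adjusted p = 0.405) without overlap between groups, though E1 5 stood apart at 0.11 from the other E1 arrays at -0.75 to -0.67 and 1 of its 3 probes had the other sign.

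Cytosolic ribosomal protein genes had 28 of 36 members lower, a median of -0.19 and 8 lower at an unadjusted p under 0.05 (22.2%). Of the 36, 23 were saturated on at least 1 of the 10 arrays, where the scanner's ceiling replaces the true intensity. The median of these 23 was -0.30, and that of the 13 that were not saturated was -0.02, with 6 higher and 7 lower. The same held for oxidative phosphorylation genes, with a median of -0.06 over 40, -0.30 over the 14 saturated and -0.02 over the rest. Over all genes, 510 were saturated on at least 1 array, with a median of -0.21 against 0.05 for the others. The 75th percentiles, given above, reached higher in ELF, and the part of saturation in these differences was not tested. The synaptic genes Camk2a and Rab3a were saturated on all 10 arrays as well.

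**Figure D5:**
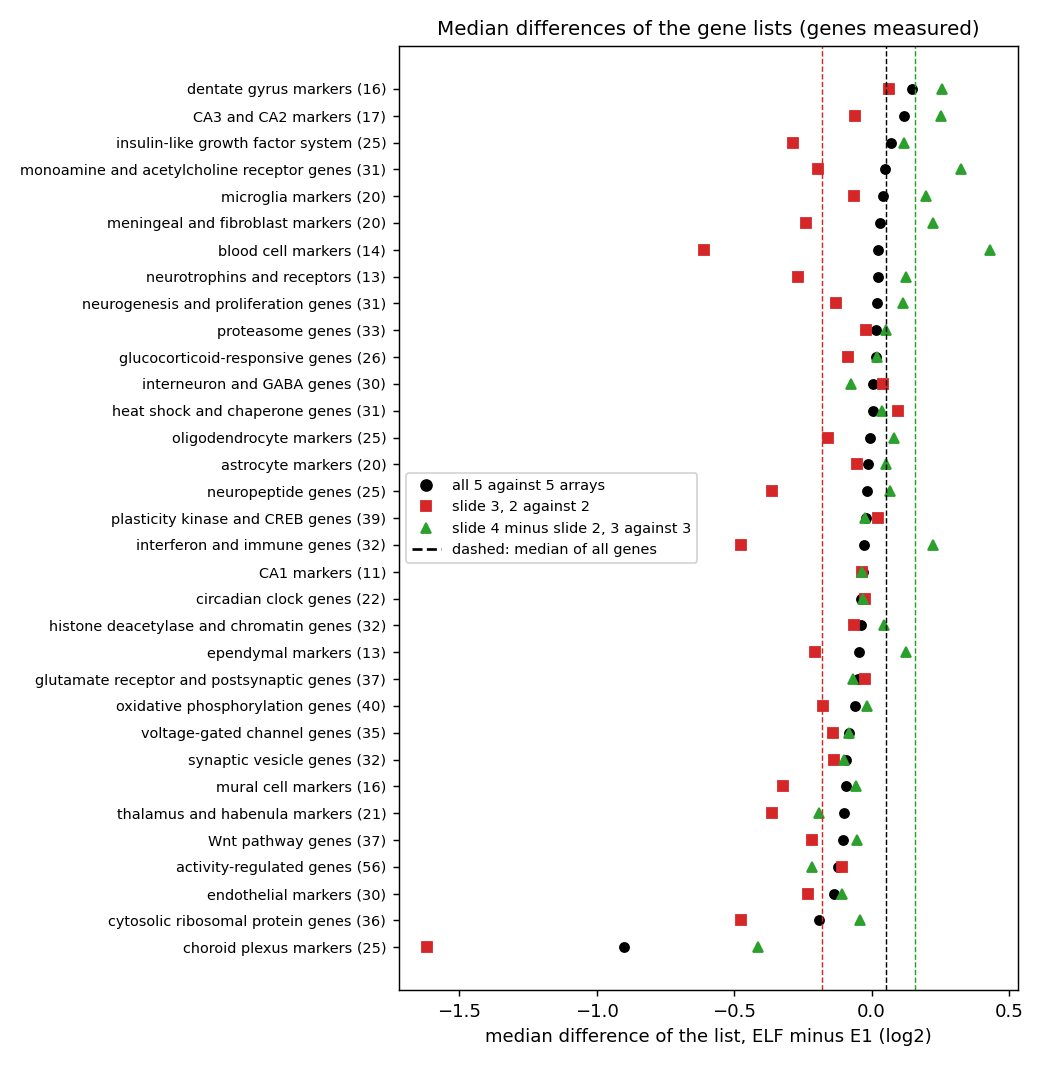
Median difference (ELF minus E1, log2) of the 33 gene lists over all arrays (circles), within slide 3 (squares) and between slides 4 and 2 (triangles), with the number of measured genes in brackets and dashed lines at the median of all genes in the same colour. Choroid plexus markers stood lowest, at -0.90, and the squares of many lists lay left of the triangles, as did the dashed lines at -0.18 and 0.16.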

How the data were processed

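Total RNA of whole hippocampus was labelled with Cy3 and measured on single-colour Agilent arrays. Per the file headers, Agilent Feature Extraction 9.5.3.1 gave each of 45018 spots a mean intensity, a background intensity and a processed intensity, already background-subtracted, which the authors deposited; other columns hold flags for spots well above background, saturated or outlying. Log2 values stand in the value table the authors deposited (array medians 8.683 to 8.916, Pearson's r with log2 of the mean intensity at least 0.996). Its scale and direction follow the intensities, and its between-array normalization is not stated in what was read here. Limma is also named, per the submitters' processing notes.

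From these, 1639 control spots and outlier spots were left out, log2 of the processed intensity was set relative to the array's 75th percentile, and spots were averaged per probe (41174). Kept were the 38457 probes well above background on at least 5 of 15 arrays, and the probe with the highest mean stood for a gene name (26117 genes, of which 10776 are unannotated transcripts that were counted and not named). By accession, 22951 probes matched RefSeq genes of GRCm38.p6, which gave current symbols; probe coordinates are mm7, per the file headers. The contrast came from limma 3.58.1 (R 4.3.3; lmFit, eBayes, two-sided, all 15 arrays, no covariate). The fit was tested on simulated data. Array identifiers gave the slides, which served as batches; all were scanned on 1 day, with 1 scan time per slide. Alternatives were normexp background with offset 50, quantile or median scaling, the deposited table, other filters, probes and arrays, and slide or replicate blocks.

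The members and gene lists were chosen with earlier results of these data known. Named genes were the 12 per direction that passed or had the lowest p, a fixed set of 16, up to 2 genes per list by lowest p (4 where they passed) and the brightest marker of each cell type list. Further list members, among them Nptx2, Nfil3, Jun, Inhba, Ptprb, Prox1, Plcb4, Sfrp1 and Gja1, were named after their values were seen. Some genes within these rules and lists are not reported here. Replicate numbers are shared by the groups, and whether they pair the samples was checked: same-numbered E1 and ELF arrays had correlations of their deviations of -0.067, -0.179, 0.17, -0.4 and 0.0028, and 0 of 5 matched best with their own number, so they were not treated as pairs.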

Additional observations from a re-analysis of the deposited data

Results flagged for a closer look

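In each group of 5 arrays, a value was marked where the highest or lowest array was separated from its nearest neighbour by more than 0.71 of the group's whole range. Of 342 such groups (the named genes and the list medians, in E1 and in ELF) 33 were marked, or 9.65%. About 1 in 20 would be marked among unselected, independent values of a normal distribution. Many of these genes were chosen by their values and some vary together, so an excess over chance cannot be read from this share. ELF 2 was marked most often, with 11 genes and 1 list, ahead of ELF 3, with 6 genes and 1 list, and E1 5, with 5 genes and 2 lists.

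On ELF 3 the low values were of choroid plexus genes. Ttr was at -1.81 (other ELF arrays 3.35 to 4.01), Enpp2 at 2.66, Kl at -1.37, C230095G01Rik (now Tmem72) at -5.62, and the median of the choroid plexus list at -2.66 (others -0.275 to 0.123). Egr2 was highest there, at -0.466, and Aspa lowest, at 0.334.

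ELF 2 had high values of Ccl3 (-4.22, others -4.47 to -4.41), Dbp (4.15), Itm2a (3.18), Pcp4 (4.61), Psma6 (4.06), Arntl (0.566) and the proteasome list (0.297). It had low values of Fkbp5 (-0.449), Inhba (-0.942), Plcb4 (-4.66), Prkcb1 (3.83) and Ptprb (-2.43). Without ELF 2 the difference of Ccl3 was 0.6, with a limma adjusted p = 0.0658. ELF 4 was low for Nptx2, at -1.62, and ELF 5 was high for the thalamus and habenula list, at 0.093.

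In E1, array 5 stood apart for Nfil3 (-2.08, others 0.124 to 0.289), Dnmt3a (0.105), Psma6 (2.51), Rgs5 (0.6), Aspa (-1.07), the neurogenesis and proliferation list (0.143) and the oxidative phosphorylation list (0.241). Array 4 was high for Hspa1a, at 1.93, and for the voltage-gated channel list, at 0.109. Array 2 was low for Cplx1, at 3.96, array 3 high for Plcb4, at -2.5, and array 1 high for Fzd10, at -1.79.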

How the results depend on the processing

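The count of called genes depended on the processing and on single arrays. Against 2 higher and 0 lower (2518 genes at an unadjusted p under 0.05 in limma), 0 and 0 were called with normexp background, with the median as shift, in the 10 arrays of E1 and ELF alone, with slide as a random block and on slide 3 alone. Quantile scaling called 2 higher (Olfr257 and Tmprss3) and 3 lower (Axud1, Cd276 and Trib1), the authors' deposited values 9 and 2, and the filter for all 15 arrays 3 and 1, the latter being Axud1. With the lowest probe of a gene 1 was called higher, Cxcl5. No filter and outlier spots kept each gave 2 and 0. With slide as a fixed block, which rests on 2 against 2 arrays of slide 3, 695 genes were called higher (2.66%) and 4425 lower (16.9%). With the replicate number as a block, 0 and 0 were called both with 15 arrays and with 10, and Cxcl5 had limma adjusted p = 0.17 and 0.634. The numbers do not pair the samples. Leaving out 1 array gave 0 to 10 higher and 0 to 1 lower. Chosen after seeing the data, quantile scaling with the slide block gave 535 and 410, and leaving out ELF 2 and ELF 3 together gave 2 and 0, with Cxcl5 at an adjusted p of 0.0932. Cxcl5 and Ccl3 were higher in ELF in all 31 alternatives (0.998 to 2.43 and 0.273 to 1.11), called in 14 and 10, and Ccl3 was lowest with normexp (limma adjusted p = 0.414). The activity-regulated list had a median of -0.191 to -0.0384 over its 31 alternatives, and 16 to 21 members were lower at an unadjusted p under 0.05 with 1 array left out, 9 with the fixed slide block. Signal over background limits dim genes, and saturation the brightest.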

Other observations

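Chaperone genes, which help proteins fold, were near the background as a list (31 measured, median 0.00), with 3 higher and 2 lower at an unadjusted p under 0.05. Hspa1a, the inducible Hsp70, read 1.59, 1.61, 1.60, 1.93 and 1.58 in E1 and 1.92, 1.98, 2.06, 1.96 and 1.89 in ELF, so that E1 4 was the only E1 array to reach ELF. Its difference was 0.30 (SE 0.084, limma adjusted p = 0.306), and all 4 of its probes had the same sign. Xbp1, a factor of the unfolded protein response, differed by 0.37 (SE 0.14, limma adjusted p = 0.425).

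In the subfields outside the dentate gyrus, Pcp4, a calmodulin-binding protein that marks CA2, was 3.93 to 4.15 in E1 and 4.21 to 4.61 in ELF without overlap (difference 0.25, SE 0.090, limma adjusted p = 0.425). The gene has 2 probes, and they differed in sign. Map3k15, another CA3 and CA2 marker, was lower in ELF without overlap, by -0.23 (limma adjusted p = 0.503). Blood cell markers, 14 of them measured, had 0 members at an unadjusted p under 0.05 in either direction. Of 13 ependymal markers 1 was higher at that p, E030011K20Rik (now Tmem212), at 0.42.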
